A study of Mus musculus with 16 samples.

Results

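Imprinted genes are expressed mainly from 1 parental allele, and 41 of them were followed here in liver and in eWAT of the offspring of obese and control fathers. They were chosen by gene symbol, and 35 of the 41 had a probe set on the array, 1 each, among 19505 named genes. The other 6 (H19, Meg3, Snrpn, Zrsr1, Rtl1 and Slc22a3) matched no probe set name and are not analysed here. By textbook knowledge, 18 of the 35 are paternally expressed, 8 are maternally expressed, and 9 are imprinted only in a tissue such as placenta or brain, only in some transcripts, or have products of both alleles. This last group is called restricted here. The labels do not spell out eWAT, the usual abbreviation of epididymal white adipose tissue. All animals were 14-week-old C57BL/6J males with control mothers. Fathers of the group called CT had eaten chow, and fathers of the group called F1 had eaten a high-fat diet with 45% lipids for 12 weeks from the age of 8 weeks. Each tissue had 4 libraries (arrays) per group, numbered as biological replicates, with no father, litter or cage given, and the p-values therefore reflect only how far these samples vary.

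Imprinting is set in the germ line, where DNA methylation of control regions differs between sperm and egg, and it is kept in the body through cell division. Paternally expressed genes such as Igf2, Peg3 and Mest tend to promote growth before birth, and maternally expressed genes such as Cdkn1c, Grb10 and Igf2r tend to restrain it. Many imprinted genes are turned down after birth in liver, while several stay on in the adipocytes and stromal cells of white fat. The array reads both alleles together, so the values below do not show which allele a transcript came from.

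The promoter of a gene whose imprint lies in CpG methylation is usually rich in CpG, the dinucleotide that DNA methyltransferases modify. RefSeq promoter windows (assembly GRCm38.p6, 250 bases before to 50 bases after a start site) were found for 33 of the 41 genes, 52 windows in all. Their median CpG count was 13, against 7 over all 32851 windows of the same length. It was 11 in the 27 windows of 17 paternally expressed genes and 20 in the 9 windows of 7 maternally expressed genes. Genes with several start sites count more than once in these medians, so they do not compare the classes gene by gene. The hexamer TGCCGC, the core of the motif of the imprint-keeping protein ZFP57, was searched on both strands and stood in 12 of the 52 windows (23.1%) and in 11.6% of all windows. The hexamer itself contains a CpG, and the 2 shares were not adjusted for the higher CpG count of these windows. The 12 include 2 largely overlapping windows of Mest (starts 30737800 and 30737803). A match of letters is a description and says nothing about binding in these tissues. The windows of Peg3 and Usp29, which are read in opposite directions, share 263 bases (chr7:6730370-6730632). The 250 bases before the start are printed for the 6 genes that differ between the groups by the loosest measure used below (an unadjusted p under 0.05) and have a window, with the richest window in CpG where there are 2. Each is written 5′ to 3′ on the strand of the gene, with CpG in capitals. All 6 hold at least as many CpG as the median window, but the choice of the richest window favours this, and the other window of Asb4 has 6. Asb4 has 8 CpG and Zim1 14, Plagl1 and Copg2 have 19, Rasgrf1 21 and Grb10 40, and the hexamer lies once each in the stretches of Plagl1, Zim1 and Copg2.
Plagl1 (chr10:13090582-13090831, plus strand): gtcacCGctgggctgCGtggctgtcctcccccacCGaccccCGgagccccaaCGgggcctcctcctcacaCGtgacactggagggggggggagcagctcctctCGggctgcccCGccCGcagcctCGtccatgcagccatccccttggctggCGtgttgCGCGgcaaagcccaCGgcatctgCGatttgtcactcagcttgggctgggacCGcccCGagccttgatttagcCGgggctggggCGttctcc
Rasgrf1 (chr9:89909525-89909774, plus strand): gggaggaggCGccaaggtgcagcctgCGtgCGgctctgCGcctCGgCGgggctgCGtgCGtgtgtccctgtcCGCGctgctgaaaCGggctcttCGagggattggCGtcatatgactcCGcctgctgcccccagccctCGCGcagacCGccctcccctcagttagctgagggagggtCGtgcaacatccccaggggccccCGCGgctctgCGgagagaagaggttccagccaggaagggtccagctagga
Zim1 (chr7:6696433-6696682, minus strand): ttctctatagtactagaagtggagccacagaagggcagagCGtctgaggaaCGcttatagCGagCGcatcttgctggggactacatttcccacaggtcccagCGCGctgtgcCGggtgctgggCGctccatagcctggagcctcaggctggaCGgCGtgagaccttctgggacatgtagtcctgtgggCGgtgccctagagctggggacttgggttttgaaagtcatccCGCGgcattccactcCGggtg
Asb4 (chr6:5390160-5390409, plus strand): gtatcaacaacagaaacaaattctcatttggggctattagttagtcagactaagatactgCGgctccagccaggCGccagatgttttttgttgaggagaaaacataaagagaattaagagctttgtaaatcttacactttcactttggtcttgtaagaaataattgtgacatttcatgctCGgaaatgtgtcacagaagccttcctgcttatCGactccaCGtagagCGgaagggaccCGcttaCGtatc
Grb10 (chr11:12037421-12037670, minus strand): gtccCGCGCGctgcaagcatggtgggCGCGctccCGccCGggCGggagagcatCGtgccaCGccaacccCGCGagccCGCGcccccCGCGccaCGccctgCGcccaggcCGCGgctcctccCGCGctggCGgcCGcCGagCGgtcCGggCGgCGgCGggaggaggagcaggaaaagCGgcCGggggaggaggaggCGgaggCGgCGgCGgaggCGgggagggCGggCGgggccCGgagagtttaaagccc
Copg2 (chr6:30896795-30897044, minus strand): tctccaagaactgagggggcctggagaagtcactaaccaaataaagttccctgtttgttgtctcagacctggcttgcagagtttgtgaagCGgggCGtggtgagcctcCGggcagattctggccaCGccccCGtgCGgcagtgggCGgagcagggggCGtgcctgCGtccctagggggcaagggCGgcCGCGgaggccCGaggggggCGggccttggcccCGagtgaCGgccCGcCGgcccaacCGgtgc

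Some libraries held transcripts of other tissues, and the results that moved most without them are given both ways. Libraries of a tissue correlated at 0.985 to 0.991 in liver and at 0.976 to 0.991 in eWAT. Adipocyte markers (9 genes on the array) had a median log2 level of 17.53 to 17.94 in eWAT libraries and 4.03 to 4.93 in liver libraries, which fits the labelled tissues. Hepatocyte markers (8 genes) had a median of 19.87 to 19.93 in liver. In eWAT, however, that median ran from 7.80 to 16.14, so liver transcripts were unevenly present in the fat libraries. The library eWAT F1 1 held seminal vesicle transcripts (median of 8 genes 11.24, against 2.73 to 3.27 in the other 7) and eWAT CT 4 held testis transcripts (median of 6 genes 9.89, against 2.98 to 3.24). Liver F1 4 held exocrine pancreas transcripts (median of 7 genes 12.13, against 4.18 to 5.43). The testis and seminal vesicle lists were chosen after values had been seen.

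The 2 tissues expressed different sets of the imprinted genes. Because liver and eWAT arrays appear to have been normalized separately, levels were set across the tissues only as a percentile among the named genes of each library, with no test. In 19 of the 35 genes all 4 eWAT CT libraries lay above all 4 liver CT libraries by percentile, in 4 the order was the opposite, and in 12 the tissues overlapped. Over all 19505 named genes, 26.1% lay wholly above in eWAT and 25.7% wholly above in liver. Among the paternally expressed genes, 9 lay above in eWAT, 2 in liver and 7 overlapped. Among the maternally expressed genes these counts were 4, 1 and 3, and among the restricted genes 6, 1 and 2.

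The distance between the tissues was widest for the paternally expressed genes Nnat and Plagl1. It did not set the paternally expressed genes apart as a class, since Peg10 and Igf2 lay less far apart than the maternally expressed Grb10 and Cdkn1c. Nnat, a small proteolipid of the endoplasmic reticulum, lay at percentile 99.8 ± 0.0421 in eWAT CT and 34.5 ± 7.64 in liver CT (mean ± SD, n = 4). Plagl1, a zinc finger transcription factor that regulates other imprinted genes, lay at 95.7 ± 0.791 and 39.4 ± 6.43. Mest, a protein of the hydrolase family whose level in white fat is known to vary widely among genetically identical mice, lay at 99.6 ± 0.0692 and 60.5 ± 1.96. The zinc finger gene Peg3 lay at 82.0 ± 2.46 against 46.2 ± 6.10, Peg10, a gene derived from a retrotransposon and needed in the placenta, at 70.7 ± 5.59 against 42.2 ± 5.36, and the fetal growth factor Igf2 at 72.5 ± 2.86 against 48.9 ± 1.48. Of the maternally expressed genes, Grb10, an adaptor that inhibits the insulin and IGF receptors, lay at 87.6 ± 2.00 in eWAT CT and 56.9 ± 2.74 in liver CT. Cdkn1c, an inhibitor of cyclin-dependent kinases, lay at 39.8 ± 1.81 and 3.04 ± 0.510.

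The genes that stood higher in liver were fewer. The amino acid transporter Slc38a4, a paternally expressed gene of hepatocytes, lay at percentile 99.8 ± 0.0116 in liver CT. The maternally expressed transporter gene Slc22a18 lay at 89.3 ± 0.659 in liver CT and 53.6 ± 2.10 in eWAT CT. Ddc, the decarboxylase that makes dopamine and serotonin, lay at 86.4 ± 2.15 and 38 ± 4.42. The fourth, Magel2 of the MAGE protein family, was dim in both tissues.

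**Figure D1:**
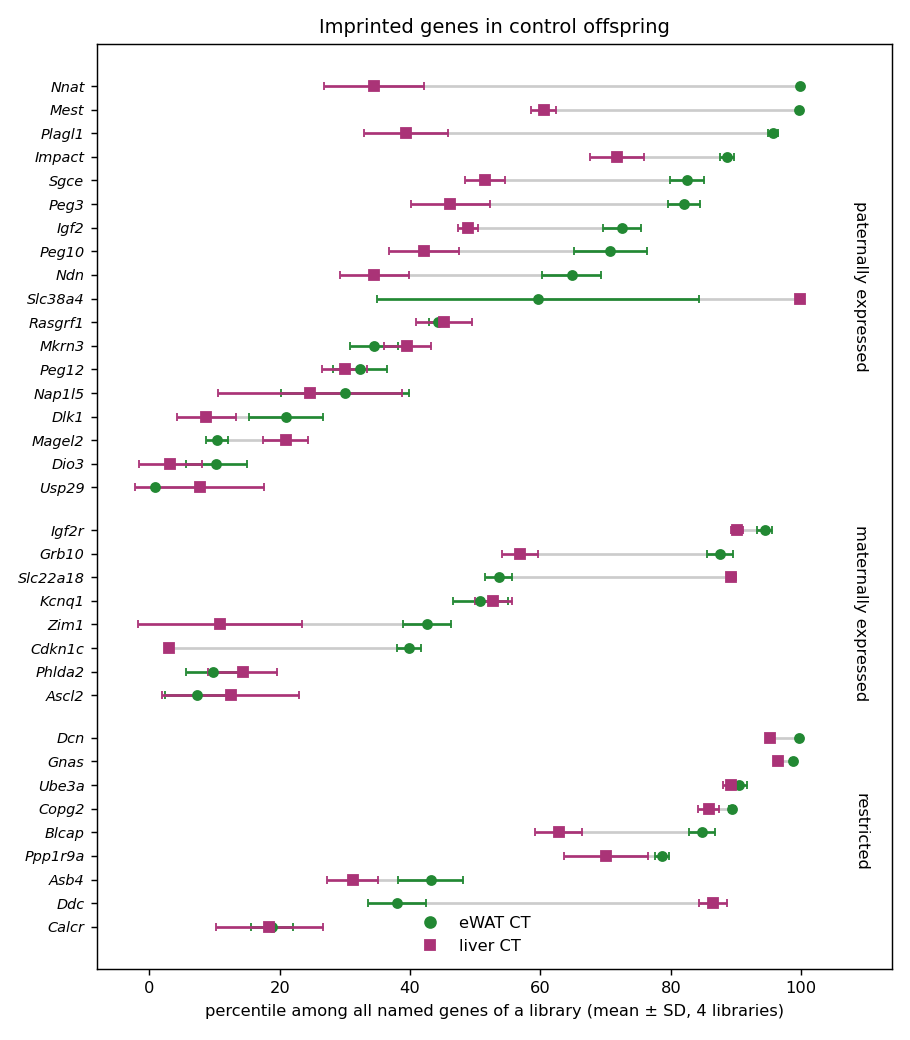
Percentile of each of the 35 imprinted genes among the 19505 named genes of a library, in control offspring. Points and bars are the mean ± SD of 4 libraries, circles for eWAT and squares for liver; Nnat, Mest, Plagl1 and Grb10 lie far to the right in eWAT, and Slc38a4, Slc22a18 and Ddc in liver.

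Genes with a mean below the 25th percentile of all probe sets in a tissue (3.90 in liver and 3.47 in eWAT on the log2 scale) were left out of that tissue's tests as dim. Of the 35 genes, 25 were kept in both tissues, and Nap1l5, Zim1 and Cdkn1c were kept in eWAT only. The 7 kept in neither were Dlk1, Magel2, Usp29, Dio3, Phlda2, Ascl2 and Calcr. Among them are Dlk1, which restrains the differentiation of preadipocytes, and Dio3, which inactivates thyroid hormone. Dlk1 lay between 2.79 and 4.05 in eWAT and between 3.40 and 3.69 in liver. Their F1 means differed from the CT means by at most 0.16 in size, in either tissue, with overlapping groups in all 7.

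In eWAT the paternally expressed genes lay mostly lower in F1 than in CT, led by Peg10, Plagl1 and Rasgrf1, but no imprinted gene passed the test. With limma and Benjamini-Hochberg adjustment, 0 of the 28 kept genes had an adjusted p under 0.05, as had 0 of all 14773 genes tested (0%). At an unadjusted p under 0.05, 6 of the 28 were lower in F1 and 0 were higher, where 5.02% of all genes tested were lower and 4.97% higher. The lower ones were 4 of 14 paternally expressed genes, 1 of 6 maternally expressed genes and 1 of 8 restricted genes. The mean difference was below 0 in 12 of 14, 4 of 6 and 5 of 8 genes of these groups, against 50.3% of all genes. The median difference was -0.39 for the paternally expressed, -0.20 for the maternally expressed and -0.11 for the restricted genes, and it was -0.0025 over all genes. Without F1 1, 5 of the 28 genes were lower at an unadjusted p under 0.05 (3.98% of all genes), and 7 were without F1 1 and CT 4 together (4.42%), the 2 libraries with male tract transcripts. The list was proposed with results of these data in view, so these counts describe the genes and are no independent support.

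Peg10 had the lowest p of the imprinted genes in eWAT. It stood at a log2 level of 9.95, 10.32, 9.09 and 8.74 in CT 1 to 4 and at 6.63, 7.96, 7.49 and 8.64 in F1 1 to 4. All 4 F1 values lay below all 4 CT values, with F1 1 the lowest and F1 4 within 0.1 of CT 4. The difference was -1.85 ± 0.47 (SE), a 3.59-fold lower mean in F1 (limma, unadjusted p = 0.00313, adjusted p = 0.370). F1 values lay wholly below CT values in 3.01% of all genes tested, and in 2 of the 28 imprinted genes kept. Without F1 1 the Peg10 difference was -1.50 ± 0.43 (adjusted p = 0.563), and without both libraries with male tract transcripts it was -1.76 ± 0.40 (adjusted p = 0.573).

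Rasgrf1, an exchange factor that activates Ras, was the second gene with no overlap. It stood at 5.99, 5.52, 5.90 and 5.67 in CT 1 to 4 and at 5.40, 5.30, 4.95 and 5.22 in F1 1 to 4. The difference was small, at -0.55 ± 0.17, with an adjusted p of 0.389 in limma. Rasgrf1, like Zim1 and Asb4 below, had a mean under the 50th percentile of all probe sets in eWAT (6.43). Plagl1 stood at 14.00, 13.82, 14.10 and 13.45 in CT 1 to 4 and at 13.01, 12.86, 13.62 and 13.03 in F1 1 to 4. The groups met only at CT 4, the library with testis transcripts, and F1 3. The difference of Plagl1 was -0.71 ± 0.22 (limma, adjusted p = 0.389) and -0.80 ± 0.24 without both libraries with male tract transcripts. Impact, which restrains the amino acid sensor kinase Gcn2, stood at 11.89, 12.19, 12.23 and 11.84 in CT 1 to 4 and at 11.72, 11.36, 11.85 and 11.61 in F1 1 to 4. F1 3 reached above CT 4 by 0.01, and the difference was -0.40 ± 0.17 (limma, adjusted p = 0.483).

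Mest and Peg3 had 1 library far below the rest. Mest stood at 17.24, 17.41, 17.48 and 16.98 in CT 1 to 4 and at 13.93, 16.75, 16.69 and 17.17 in F1 1 to 4. F1 1 was thus far below the other 7 libraries, F1 2 and F1 3 lay just below the lowest CT library, and F1 4 lay inside the CT range. Peg3 stood at 10.79, 10.65, 11.39 and 11.18 in CT 1 to 4 and at 8.15, 10.91, 11.41 and 12.04 in F1 1 to 4, so the other 3 F1 libraries lay within or above the CT range. Over the 14773 genes kept in eWAT, the gap by which F1 1 lay below the lowest of the other 7 libraries was largest for Mest (2.76), and that for Peg3 ranked 3 (2.5). With all libraries the difference was -1.14 ± 0.62 for Mest and -0.38 ± 0.71 for Peg3 (limma, adjusted p = 0.563 and 0.879). Without F1 1 it was -0.41 ± 0.20 for Mest and 0.45 ± 0.30 for Peg3 (adjusted p = 0.662 and 0.713), so the sign of Peg3 rested on that library. Without F1 1 and CT 4 the Mest difference was -0.51 ± 0.20 (limma, unadjusted p = 0.0365, adjusted p = 0.598). F1 1 was also the library with seminal vesicle transcripts and had the lowest median of macrophage markers (11.59, against 12.28 to 12.85 in the other 7). Its median of mesothelial markers was the lowest too (8.47, against 9.21 to 9.81), but that median was the value of Wt1 alone. For each of the other mesothelial markers CT 2 lay below F1 1, as for Upk3b (14.00 and 15.14), Lrrn4 (10.92 and 12.54) and Gpm6a (11.95 and 12.31). The part of other tissues or cell types in the low Mest and Peg3 of F1 1 was not tested.

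**Figure D2:**
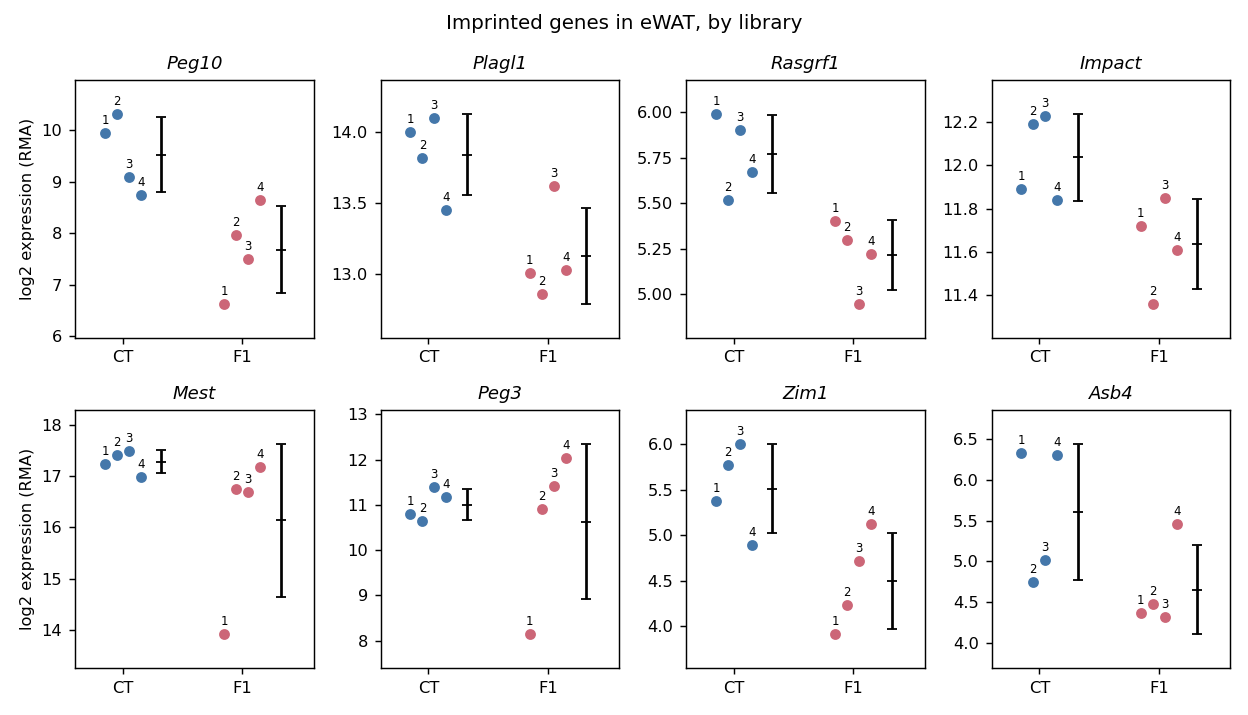
Log2 expression of 8 imprinted genes in each eWAT library, numbered by replicate; the bar is the mean ± SD of 4 libraries. F1 lies wholly below CT for Peg10 and Rasgrf1, while Mest and Peg3 are by far lowest in F1 1; F1 2 and F1 3 also lie below CT for Mest.

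The other paternally expressed genes of eWAT had intervals on both sides of 0. Nnat stood at 17.68 to 18.05 in CT and 17.53 to 18.50 in F1, with a difference of 0.12 ± 0.22. Igf2 stood at 9.33 to 10.09 in CT and 9.43 to 10.02 in F1, with a difference of -0.0025 ± 0.22 and a 95% interval of -0.51 to 0.50. Sgce, the epsilon-sarcoglycan that is the neighbour of Peg10 and shares its imprinted region, differed by -0.07 ± 0.22 (95% interval -0.56 to 0.42), beside the -1.85 of Peg10. Ndn, a MAGE family protein of the Prader-Willi region, differed by -0.19 ± 0.31. Of its neighbours there, Mkrn3, a ubiquitin ligase, differed by -0.09 ± 0.22 and Peg12 by -0.45 ± 0.23. Nap1l5 differed by -0.51 ± 0.39. The adjusted p in limma was 0.541 for Peg12 and 0.685 or more for the other 6. Peg12 was one that moved without the libraries with male tract transcripts, to -0.55 ± 0.24 without F1 1 (limma, unadjusted p = 0.0467, adjusted p = 0.625) and to -0.66 ± 0.24 without both (unadjusted p = 0.0263, adjusted p = 0.592). Ndn moved to -0.02 ± 0.32 without F1 1 and to -0.32 ± 0.18 without both. Without both, Nnat stood at 0.33 ± 0.20, Mkrn3 at -0.29 ± 0.23 and Sgce at -0.17 ± 0.24.

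Slc38a4 had the largest positive difference, with the widest spread. It stood at 5.51, 4.27, 11.23 and 10.44 in CT 1 to 4 of eWAT and at 9.01, 10.94, 8.01 and 12.03 in F1 1 to 4. The groups overlapped, and the difference was 2.14 ± 1.58 (limma, adjusted p = 0.676). The median of the 8 hepatocyte markers in the same libraries was 8.93, 7.80, 14.72 and 14.75 in CT and 12.75, 15.32, 12.29 and 16.14 in F1. The libraries CT 1 and CT 2 were the lowest and F1 4 the highest in both. Albumin itself (Alb) stood at 14.16, 12.43, 18.91 and 18.55 in CT and at 16.95, 18.77, 16.65 and 19.07 in F1. Ddc, which also stood higher in liver, was at 4.27, 4.31, 5.39 and 5.52 in CT and at 4.75, 5.41, 4.5 and 6.46 in F1 of eWAT. CT 1 and CT 2 were again lowest and F1 4 highest. The difference of Ddc was 0.41 ± 0.46 (limma, adjusted p = 0.779). Slc22a18, higher in liver too, did not share this order. It stood at 7.44, 7.02, 7.60 and 6.97 in CT and at 7.15, 7.53, 6.94 and 6.99 in F1 of eWAT, with F1 3 lowest and CT 3 highest. Without F1 1 and CT 4 the difference was 3.32 ± 1.82 for Slc38a4 and 0.80 ± 0.52 for Ddc (adjusted p = 0.643 and 0.693). The part of liver transcripts in these 2 differences was not tested.

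**Figure D3:**
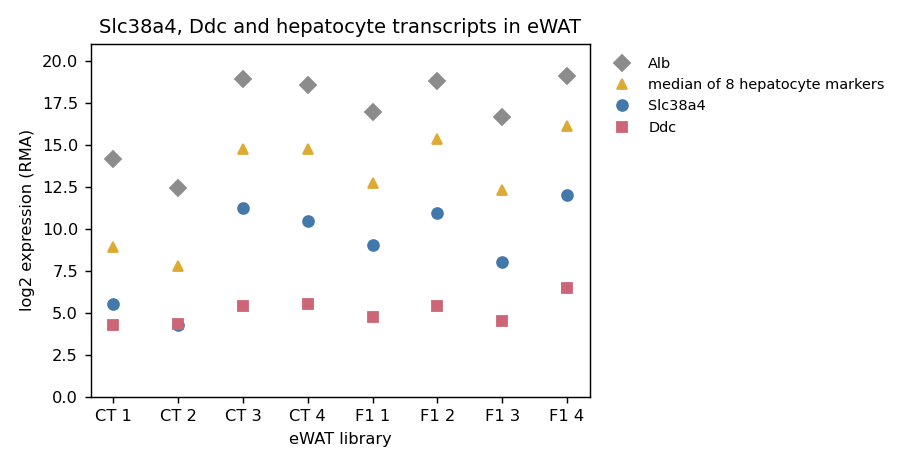
Log2 expression of Slc38a4 and Ddc in each eWAT library, beside albumin (Alb) and the median of 8 hepatocyte markers. CT 1 and CT 2 are the lowest and F1 4 the highest for all 4.

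Among the maternally expressed genes of eWAT, Zim1 differed most. Zim1, a zinc finger gene next to Peg3, stood at 5.38, 5.77, 6.00 and 4.89 in CT 1 to 4 and at 3.92, 4.24, 4.72 and 5.12 in F1 1 to 4. Only F1 4 reached into the CT range, and the difference was -1.01 ± 0.31 (limma, unadjusted p = 0.0103, adjusted p = 0.389). It was -0.82 ± 0.31 without F1 1, while that of its neighbour Peg3 then lay above 0. Igf2r, which clears IGF2 from the cell surface, stood at 13.02 to 13.89 in CT and 12.76 to 13.22 in F1 (-0.32 ± 0.21). Cdkn1c differed by -0.30 ± 0.22, Slc22a18 by -0.11 ± 0.21, the potassium channel Kcnq1 by 0.0025 ± 0.43 and Grb10 by 0.09 ± 0.21 (95% interval -0.38 to 0.55). None of these 5 had an adjusted p under 0.640. Without F1 1 and CT 4 the difference of Igf2r was -0.05 ± 0.17 and that of Kcnq1 0.24 ± 0.46, and without F1 1 alone that of Grb10 was -0.0042 ± 0.22.

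Of the restricted genes, Asb4, a subunit of ubiquitin ligases that lies in the Peg10 region, stood at 6.33, 4.75, 5.02 and 6.31 in CT 1 to 4 of eWAT and at 4.37, 4.47, 4.31 and 5.46 in F1 1 to 4. CT split into a high and a low pair, and F1 4 lay between them. The difference of Asb4 was -0.95 ± 0.42 (limma, adjusted p = 0.497) and -0.62 ± 0.47 without both libraries with male tract transcripts. The actin-binding protein gene Ppp1r9a of the same region differed by -0.24 ± 0.15 and Copg2, a coatomer subunit gene next to Mest, by -0.23 ± 0.15. Dcn, the matrix proteoglycan decorin, differed by 0.10 ± 0.14, Gnas, which encodes the stimulatory G protein subunit, by -0.09 ± 0.17, the ubiquitin ligase gene Ube3a by -0.13 ± 0.20 and Blcap by 0.22 ± 0.20. The adjusted p of these 6 was 0.626 or more.

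Markers of cell types in fat are given for the same libraries, since fewer cells of a type and less RNA per cell cannot be told apart in whole tissue. Adipose progenitor and fibroblast markers had a median of 12.03 to 12.28 in CT and 11.87 to 12.31 in F1, with 10 of 12 lower in mean. The lowest difference of that list was -0.395, while Cd24a went the other way and moved most (0.85 ± 0.23, limma, adjusted p = 0.383). Endothelial markers had a median of 11.18 to 11.53 in CT and 10.82 to 11.11 in F1, which in every library was the value of Tek. Of the 7 endothelial markers, 4 were lower in mean and 3 higher. Tek lay wholly lower in F1, and Vwf lay wholly higher, at 9.83 to 10.52 in CT and 10.65 to 10.91 in F1. Of all genes tested in eWAT, 3.01% lay wholly lower, and the share wholly higher was not counted. Macrophage markers had a median of 12.28 to 12.85 in CT and 11.59 to 12.82 in F1, with 9 of 10 kept markers lower. Adipocyte markers had a median of 17.73 to 17.87 in CT and 17.53 to 17.94 in F1, with 8 of 9 higher, by at most 0.215. The 1 lower, Lep, moved most (-0.63 ± 0.26, limma, adjusted p = 0.471). Skeletal muscle markers had a median of 5.13 to 6.48 in CT and 4.70 to 5.34 in F1, with 5 of 6 lower. The part of cell makeup in the differences of the imprinted genes was not tested.

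In liver the imprinted genes showed no common direction, and Grb10 and Copg2 were the 2 with an unadjusted p under 0.05, both lower in F1. With limma, 0 of 25 kept genes were called at an adjusted p under 0.05, against 0.156% of the 14722 genes tested. The 2 genes compare with 4.67% of all genes that were lower and 4.48% that were higher at an unadjusted p under 0.05, and 0 imprinted genes were higher by that measure. The mean difference was below 0 in 7 of 13 paternally expressed, 3 of 4 maternally expressed and 4 of 8 restricted genes, against 50.2% of all genes. Their median differences were -0.06, -0.08 and -0.07, and 0 over all genes.

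Grb10 stood at 6.75, 5.90, 6.10 and 6.47 in liver CT 1 to 4 and at 5.44, 5.61, 5.85 and 5.89 in F1 1 to 4. The groups did not overlap, though F1 4 and CT 2 were 0.01 apart, and it was the single kept imprinted gene of liver without overlap, where 2.69% of all genes tested had F1 wholly below CT. The difference was -0.61 ± 0.21 (limma, unadjusted p = 0.0159, adjusted p = 0.426). Copg2 stood at 10.98, 10.70, 10.27 and 10.59 in CT 1 to 4 and at 10.39, 10.15, 10.11 and 10.29 in F1 1 to 4, with CT 3 inside the F1 range. Its difference was -0.40 ± 0.18 (limma, adjusted p = 0.539). Ddc stood at 11.26, 10.41, 10.96 and 10.39 in CT and at 10.87, 10.38, 9.22 and 10.11 in F1, with F1 3 the lowest, and differed by -0.61 ± 0.34 (adjusted p = 0.645). Ndn had the largest positive difference, at 0.32 ± 0.19 (adjusted p = 0.658), with F1 3 and F1 4 above every CT library and F1 1 and F1 2 inside the CT range.

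**Figure D4:**
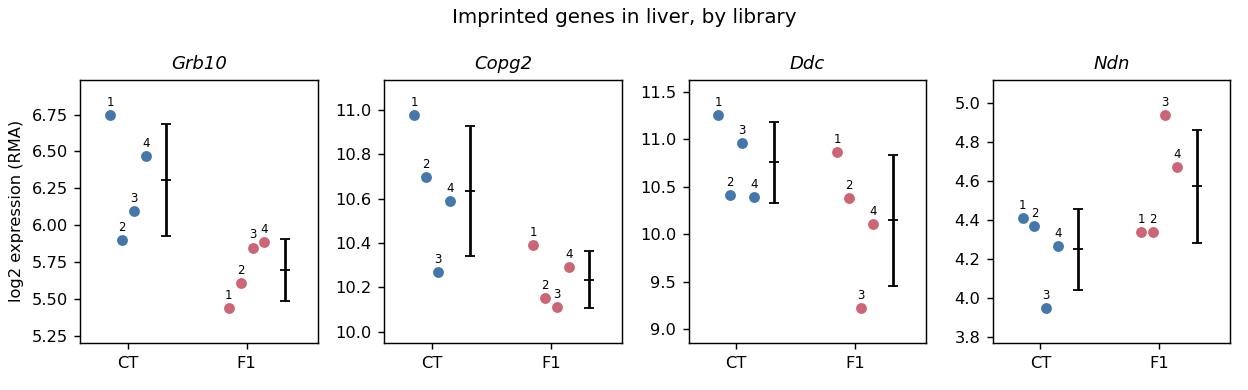
Log2 expression of the 4 imprinted genes with the smallest p in liver, by library and numbered by replicate; the bar is the mean ± SD of 4 libraries. F1 lies wholly below CT for Grb10 alone.

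The other liver genes had intervals on both sides of 0. Slc38a4 stood at 19.28 to 19.46 in CT and 19.12 to 19.55 in F1, close to the highest value on the arrays (19.93), so a difference could be flattened. Igf2 stood at 5.02 to 5.36 in CT and 4.94 to 5.28 in F1 (-0.16 ± 0.15), and Igf2r at 11.30 to 11.92 and 11.62 to 11.80 (0.07 ± 0.16). Mest, at 6.49 to 7.08 in CT and 6.51 to 7.62 in F1, differed by 0.17 ± 0.27, and Peg3 by 0.28 ± 0.28. Peg10 differed by -0.06 ± 0.20 (95% interval -0.51 to 0.39), Plagl1 by 0.18 ± 0.27 (-0.41 to 0.78) and Rasgrf1 by -0.06 ± 0.18 (-0.45 to 0.34), the 3 paternally expressed genes that led in eWAT. Their adjusted p in limma was 0.889 or more. All 3 had a mean under the 50th percentile of all probe sets in liver (5.20), so a difference there could be missed. The liver library with pancreas transcripts, F1 4, was the highest of the 8 for 4 of the kept genes, Plagl1, Peg3, Sgce and Peg12. Without it 1 of the 25 genes, Grb10, was lower at an unadjusted p under 0.05 (4.57% of all genes), at -0.67 ± 0.23 (limma, adjusted p = 0.425), and Copg2 stood at -0.42 ± 0.20 (unadjusted p = 0.0652). Plagl1 then differed by 0.0008 ± 0.26, Peg3 by 0.09 ± 0.28, Sgce by -0.48 ± 0.25, Mest by 0.32 ± 0.27 and Peg12 by -0.16 ± 0.15. The sign turned for Kcnq1 (0.21 ± 0.37), Nnat (0.03 ± 0.21) and Ppp1r9a (-0.04 ± 0.47).

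Whether the difference between F1 and CT depended on the tissue was tested as an interaction, the liver difference minus the eWAT difference, in 1 fit of 16 libraries. Of the 28 imprinted genes in that fit, 0 were called, against 12 of 14760 genes (0.0813%). At an unadjusted p under 0.05, Peg10, Plagl1 and Zim1 had a positive interaction and Grb10 a negative one, where 4.91% and 4.97% of all genes did. The interaction was 1.79 ± 0.53 for Peg10 (adjusted p = 0.285), 0.90 ± 0.36 for Plagl1 (0.439), 1.005 ± 0.43 for Zim1 (0.457) and -0.69 ± 0.30 for Grb10 (0.470). Zim1 was dim in liver (3.16 to 4.25), so a difference there could not be measured well. Peg10 (4.30 to 5.19) and Plagl1 (4.17 to 5.26) passed the filter in liver but were low there. Their means lay under the 50th percentile of all probe sets (5.20), so their liver differences are also less surely measured. The liver and eWAT differences of these genes are thus not shown to be unequal after adjustment.

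**Figure D5:**
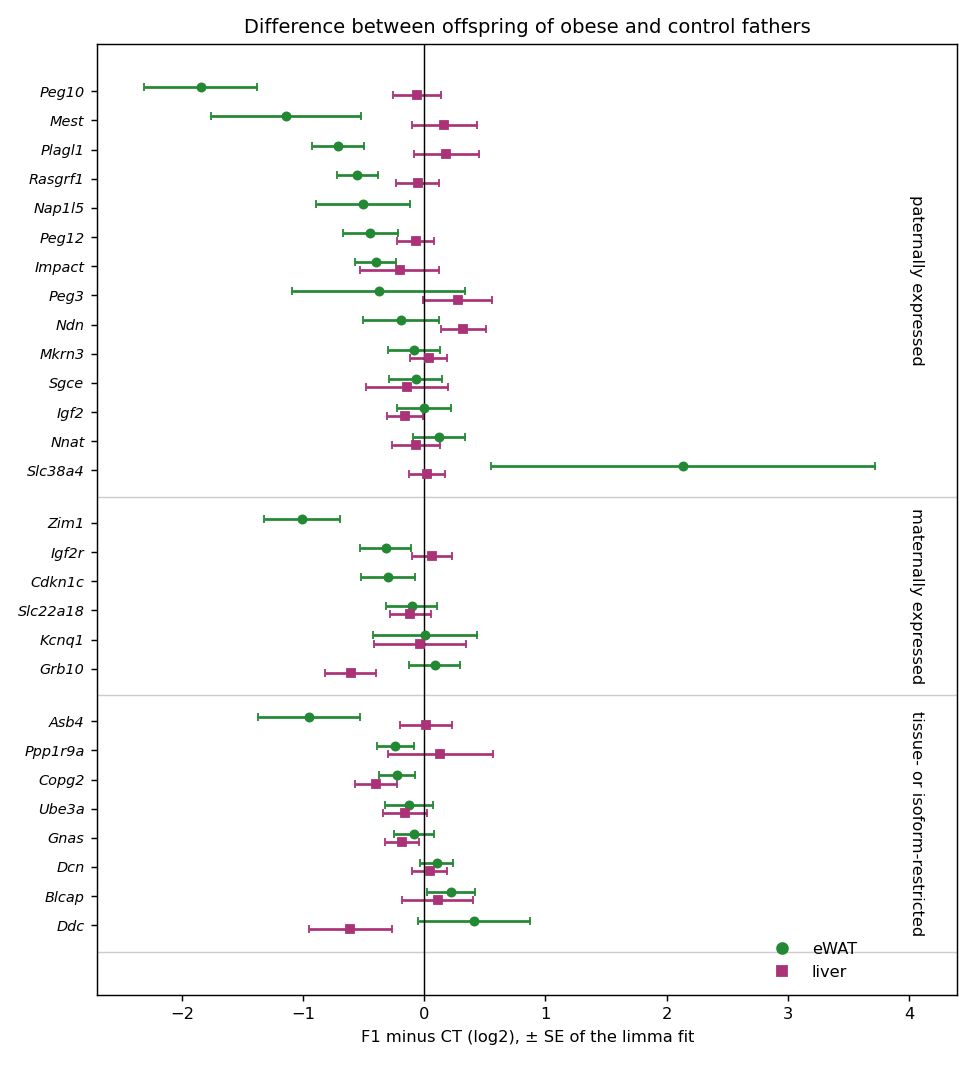
Difference between F1 and CT (log2, ± SE of the limma fit) for the 28 imprinted genes kept in eWAT (circles) and the 25 kept in liver (squares), by parental class. The lowest eWAT values are those of Peg10, Mest and Zim1, and the lowest liver values those of Ddc and Grb10.

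Imprinted genes outside this set were read from a list of 39 further symbols, of which 31 were on the array. Unlike the main set, this list was not split by parental class or by the tissue of imprinting. It may therefore hold genes of the restricted kind, and its counts do not describe genes known to be imprinted in fat or liver. In eWAT 29 were kept, and 22 of them had a lower mean in F1, where 50.3% of all genes tested did. At an unadjusted p under 0.05, 4 were lower and 0 higher, against 5.02% and 4.97% of all genes, and 0 were called after adjustment in limma. The 4 were Gatm, an enzyme of creatine synthesis, Sfmbt2, a Polycomb group gene, Kcnq1ot1, the antisense RNA that silences the Cdkn1c region, and Qpct, which cyclizes glutamine at protein ends. Gatm differed by -0.79 ± 0.20, Sfmbt2 by -1.23 ± 0.39 and Kcnq1ot1 by -0.44 ± 0.18, each without overlap between the groups, and Qpct by -0.60 ± 0.27 with overlap (adjusted p = 0.371, 0.397, 0.468 and 0.497). The F1 mean of Sfmbt2 (3.35) lay below the filter on dim genes, so it was kept only through CT and its difference is no support for the list. Over all genes tested in eWAT, F1 values lay wholly below CT values in 3.01%. In the other direction, Commd1 of this list had all F1 values above all CT values, at 0.335 ± 0.19 (limma, adjusted p = 0.578). The share of all genes with F1 wholly above CT was not counted, so this is a description only. Kcnq1ot1 is antisense to Kcnq1, and whether their probes tell the strands apart is not given in the sources used here. In liver 25 were kept, with 16 higher and 9 lower, and 0 had an unadjusted p under 0.05. The 4 with the smallest p included Axl, a receptor tyrosine kinase (0.45 ± 0.21), and Bcl2l1, an inhibitor of apoptosis (0.45 ± 0.23).

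Genes that set or keep imprints were read from a list of 25 symbols, 24 of them on the array. In eWAT 21 were kept, 8 with a higher and 13 with a lower mean in F1, and 0 were called in limma. The demethylating dioxygenase Tet1 was the 1 with an unadjusted p under 0.05 (-0.54 ± 0.20, adjusted p = 0.422). It too was kept only through CT, with an F1 mean of 3.21 below the filter. At an unadjusted p under 0.05, 5.02% of all genes tested in eWAT were lower and 4.97% higher. Tet3 (-0.49 ± 0.22), Ctcfl (0.64 ± 0.31) and the insulator protein Ctcf (0.28 ± 0.13) came next. Ctcf had all F1 values above all CT values, where the share of all genes that did was not counted. In liver 19 were kept, and 0 were called. Tet3 differed by 0.67 ± 0.24 and the maintenance methyltransferase Dnmt1 by -0.59 ± 0.24, both with an unadjusted p under 0.05 (adjusted p = 0.445 and 0.502). Of all genes tested in liver, 4.48% were higher and 4.67% lower by that measure. Zfp57 itself stood at 5.29 to 5.79 in eWAT CT and 4.24 to 5.54 in F1.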

How the data were processed

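The arrays measured total RNA of 16 tissue samples, 4 per group, each from 150 ng of RNA amplified and labelled with the Affymetrix WT PLUS kit, per the labels' protocols. The deposited values are log2 expression, made by the authors in Transcriptome Analysis Console 4.0 with RMA, both named in the submitters' processing notes. RMA is a standard method of background correction, quantile normalization and summary over the probes of a set. The median of a library lay between 5.21 and 5.24 in liver but between 6.34 and 6.56 in eWAT, so the tissues appear to have been normalized separately. Arrays give no read depth, and their number limits the precision. No batch is given in the sources used here. No genome build is named for the probe sets.

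Of 22206 probe sets, 19572 had 1 gene symbol in the platform annotation and 2634 had none. Where a symbol had several probe sets (55 symbols), the one with the highest mean stood for it. Each imprinted gene on the array had 1. F1 minus CT was estimated per tissue with lmFit and eBayes of limma 3.58.1 (R 4.3.3) over all genes with a mean at or above the 25th percentile of all probe sets, with Benjamini-Hochberg adjustment over all of them and a call at an adjusted p under 0.05. All p-values are from these fits or the interaction fit of 16 libraries. Differences are given with their standard error (SE). The code was tested on simulated data. The members and lists were chosen with earlier results of these data known. Every member was named. Values per library were given for those with an unadjusted p under 0.05 or groups without overlap, and for others where a library stood apart. Up to 4 genes per tissue were named from each further list by smallest p, and Commd1 was added for its groups without overlap. Promoter sequences are RefSeq's, assembly GRCm38.p6.

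Replicate numbers were not used as pairs. The deviations of same-numbered CT and F1 samples from their group means correlated at -0.0545 to 0.0655 in liver and at -0.457 to 0.391 in eWAT, and those of same-numbered liver and eWAT samples at 0.00764 to 0.0619. Alternatives were other filters, variance models, weights, normalizations, probe set rules, a replicate block, 1 fit of all samples and leaving out each library. A fit without both eWAT libraries with testis or seminal vesicle transcripts was chosen after seeing the data.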

Additional observations from a re-analysis of the deposited data

Results flagged for a closer look

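In 8 of 106 groups of 4 libraries checked (each imprinted gene kept in a tissue, in CT and in F1), 1 library lay far from the other 3, by a gap that exceeded Dixon's 95% critical share of the group's range. Chance flags about 5% of such groups, which is near the share found. In eWAT these were Mest in F1 1 at 13.93 (others 16.69 to 17.17), Ndn in CT 4 at 7.86 (others 8.94 to 9.10), Nnat in CT 2 at 17.68 (others 17.99 to 18.05), Sgce in F1 4 at 11.37 (others 10.83 to 10.92), Cdkn1c in F1 3 at 4.21 (others 4.90 to 4.98) and Asb4 in F1 4 at 5.46 (others 4.31 to 4.47). In liver these were Rasgrf1 in CT 1 at 4.44 (others 5.04 to 5.10) and Ube3a in CT 1 at 11.86 (others 11.17 to 11.28).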

How the results depend on the processing

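The 12 differences with an unadjusted p under 0.05 (6 in eWAT, 2 in liver and 4 interactions) kept their sign in all 238 values from the alternatives, and 0 of these passed an adjusted p under 0.05. Of the genes not among these 12 differences, Peg3 and Grb10 in eWAT turned sign without F1 1, as given above with those that turned in liver without F1 4. Such genes were not followed through the other alternatives, so more of them may turn sign when another library is left out. The smallest adjusted p reached was 0.0576, for Peg10 in eWAT (range 0.0576 to 0.573). No imprinted gene was called in liver, in eWAT or in the interaction under any alternative run.

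The median difference of the paternally expressed genes in eWAT was -0.17 with no filter on dim genes, and -0.42 to -0.23 when each library was left out. That of the maternally expressed genes in eWAT was -0.0513 with a filter at the 50th percentile, and -0.29 to -0.16 when each library was left out. In liver the paternally expressed genes had a median of -0.035 to 0.0367 when each library was left out, with the positive value without CT 4.

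Counts over all genes moved more. In eWAT 25 genes were called in 1 fit of all 16 libraries, and 0 to 1 when each library was left out. In liver 74 were called with the trend and robust settings, 51 in 1 fit of all 16 libraries, 6 with the replicate block, and 7 to 24 when each library was left out. In the interaction 36 were called with the trend and robust settings, 1 with the replicate block, and 7 to 25 when each library was left out. The replicate block changed no call of an imprinted gene. The planned correlation between imprinted genes across libraries was not run.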

Other observations

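Outside the comparisons above, Sfrp5, a secreted Wnt antagonist that is not imprinted and is known to vary with Mest in white fat, was chosen after its values were seen. It stood at 12.75, 12.49, 11.89 and 11.52 in eWAT CT 1 to 4 and at 7.09, 9.63, 10.37 and 12.96 in F1 1 to 4. F1 1 was the lowest and F1 4 the highest of the 8 libraries, as for Peg3, and F1 1 was the lowest for Mest too. The imprinted transcription factor gene Klf14, from the list of further imprinted genes, stood at 7.41, 7.89, 7.42 and 6.33 in eWAT CT and at 3.81, 6.17, 6.83 and 6.97 in F1, again with F1 1 the lowest.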
